A study of Mus musculus with 6 samples.

Results

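Carboxylesterases are serine hydrolases of the endoplasmic reticulum and blood plasma that split ester, thioester and amide bonds. The 6 mouse genes described here were Ces2c, Ces2g and Ces2e of the Ces2 subfamily and Ces1d, Ces1f and Ces1g of the Ces1 subfamily. Their probes were found on the arrays by RefSeq accession, so that older names (Ces3 for Ces1d, Ces2 for Ces2c) fell under the present symbols, and 9 of the 55681 gene probes belonged to them. Of the 6 genes, 4 had a probe that 3 or more of the 6 arrays read as well above background, and were among the 20907 genes tested. The other 2, Ces2e and Ces1g, were not well above background on any array. The genes were chosen with their old and young values known, so their differences between the ages are given as a description and without a test.

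Gastrocnemius RNA was taken from male mice 25 months old (old, 3 samples) and 13 weeks old (young, 3 samples), with no treatment or allele named for either age. The gastrocnemius is a mostly fast-twitch muscle of the calf. Every sample was read on 1 single-colour Agilent array (Cy3), and the 6 arrays shared 1 slide. The labels do not say that the 3 samples of an age came from separate animals, so any p-value measures sample-to-sample spread alone, and that spread may be technical. In whole muscle, fewer cells of a type and less RNA per cell cannot be told apart.

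In liver and small intestine these enzymes hydrolyse drugs, environmental esters and stored lipids. Ces1d is known as triacylglycerol hydrolase and releases fatty acids from stored fat in liver and adipose tissue, and Ces1f is named as a related triacylglycerol hydrolase. Ces2c is known as an acylcarnitine hydrolase and Ces2e as a hydrolase of pyrethroid insecticides. The mouse genes arose by repeated duplication and lie in a pair of clusters on chromosome 8, one with the Ces1 genes and Ces5a and the other with the Ces2, Ces3 and Ces4 genes. In the RefSeq gene order of assembly GRCm38.p6, Ces2b directly precedes Ces2c, the pseudogene Ces2d-ps and Ces2e follow it, and Ces2f and Ces2g come next. Ces1d, Ces1e, Ces1f and Ces1g are likewise neighbours in that order.

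The promoter windows of Ces2c and Ces2g are shown because these were the members with the higher values in old muscle. They are the RefSeq windows of assembly GRCm38.p6, from 250 bases before to 50 bases after the annotated start, on the plus strand, at chr8:104846818-104847117 for Ces2c and chr8:104961468-104961767 for Ces2g. Capitals mark the CCAAT box, read here on the opposite strand.
Ces2c: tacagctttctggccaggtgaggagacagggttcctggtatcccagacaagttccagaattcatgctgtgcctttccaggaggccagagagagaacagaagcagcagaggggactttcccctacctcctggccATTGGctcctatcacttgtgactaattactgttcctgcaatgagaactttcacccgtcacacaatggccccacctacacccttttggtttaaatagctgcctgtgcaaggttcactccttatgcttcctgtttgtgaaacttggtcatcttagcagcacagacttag
Ces2g: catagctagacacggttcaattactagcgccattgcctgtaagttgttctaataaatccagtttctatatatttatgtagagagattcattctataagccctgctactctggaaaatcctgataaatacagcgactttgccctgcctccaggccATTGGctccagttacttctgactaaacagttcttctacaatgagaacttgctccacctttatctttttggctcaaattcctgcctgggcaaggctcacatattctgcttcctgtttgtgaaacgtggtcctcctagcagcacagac
The box began 117 bases before the start in Ces2c and 96 bases before it in Ces2g, on the same strand in both windows. A global alignment gave 60.7% identity between these windows, against 54.4% between those of Ces2c and Ces2e and 45.4% between those of Ces2c and Ces1g. The Ces2c window was more like that of Ces2a (65.4%), a gene undetected on every array, and 57.8% like that of Ces2f. CCAAT on either strand was present in 37.4% of all 32851 promoter windows, in 10 of the 15 carboxylesterase genes that had a window and in 4 of the 6 such Ces2 genes, but not in the window of Ces2e. The other motifs searched on both strands were the E-box CACGTG (7.15% of all windows), the D-box TTATGNAA (3.38%), TATAAA (13.6%), the AP-1 site TGACTCA (5.20%), the antioxidant element TGACNNNGC (12.4%), the GC box GGGCGG (35.7%) and the nuclear receptor direct repeats DR1 (0.0396%) and DR4 (0.0152%). None of these letters was in the windows of Ces2c and Ces2g. A window was at hand for 4 of the 6 genes.

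Levels are log2 signals minus the 75th percentile of the same array, so that 0 stands for a probe as bright as that percentile, and a level is compared only within 1 probe. Ces2c was higher in old muscle, to a very different degree in the 3 old samples. By its brightest probe, for accession NM_145603, the level was 0.86, 3.34 and 3.92 in old replicates 1, 2 and 3, against 0.19, 0.34 and 0.04 in young replicates 1, 2 and 3. Old replicates 2 and 3 stood far above every young sample, old replicate 1 stood closer to the young samples than to the other old ones, and the ages did not overlap. Relative to the young mean, the signal was 1.59-fold in old replicate 1, 8.88-fold in old replicate 2 and 13.3-fold in old replicate 3. The mean level was 2.71 ± 1.63 in old muscle and 0.19 ± 0.15 in young muscle (SD, n = 3 each), a log2 difference of 2.52 ± 0.74 (SE) or 5.72-fold. The SD of the old samples was exceeded by that of 0.770% of the 20907 genes.

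The other probes of Ces2c gave the same picture, with log2 differences of 2.69 and 2.44. The 3 probes moved together from array to array, as their pairwise Pearson correlations over the 6 samples ran from 0.996 to 0.999 (no probe is independent of the others, since all read the same RNA). Ces2b, the neighbour of Ces2c and not one of the 6 genes, followed the same course. Its level was 0.36, 2.76 and 3.42 in old replicates 1, 2 and 3, against -0.29, -0.10 and -0.31 in young replicates 1, 2 and 3. Its log2 difference was 2.42 ± 0.73, and limma's moderated test gave an adjusted p of 0.231 over all genes. Ces2b and Ces2c are related in sequence, the probe sequences were not used here, and whether the probes tell these transcripts apart was not tested.

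**Figure D1:**
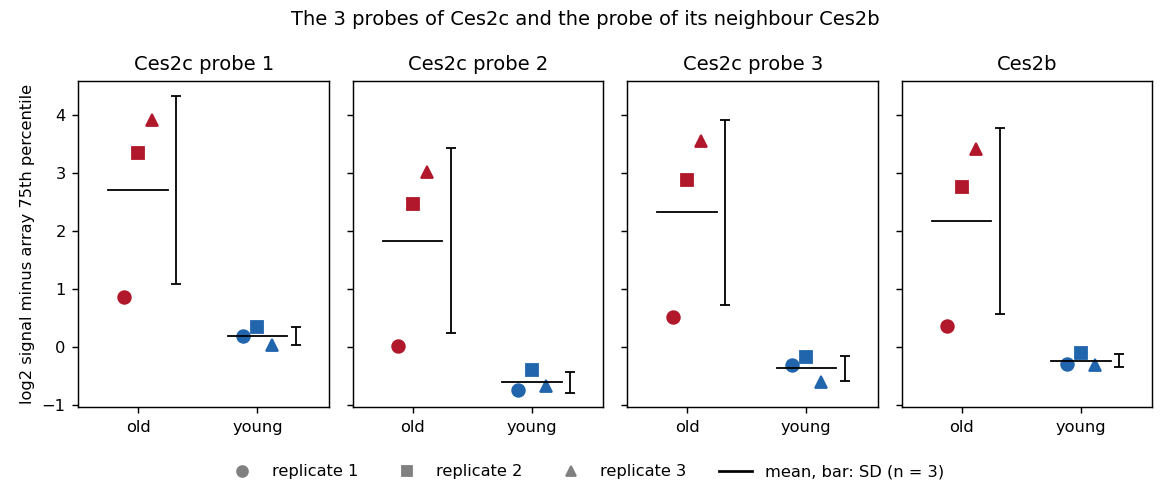
Level (log2 signal minus the array's 75th percentile, vertical axis) of the 3 Ces2c probes and the Ces2b probe in old and young samples, with marker shape for the replicate, a line for the mean and a bar for the SD (n = 3). In all 4 panels old replicates 2 and 3 lie well above the young samples and old replicate 1 lies just above them.

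Ces2g was well above background in every old sample and in no young sample. Its level was -2.94, -1.89 and -2.62 in old replicates 1, 2 and 3, against -5.33, -4.99 and -4.22 in young replicates 1, 2 and 3, all 3 of the young values being below detection. Here old replicate 1 lay with the other old samples, and the ages did not overlap. The mean was -2.49 ± 0.54 in old muscle and -4.85 ± 0.57 in young muscle (SD, n = 3 each). Because the young values give only a limit, Ces2g was at least 2.85-fold higher in old muscle. With normexp background correction, which adds an offset to dim signals, its log2 difference was 0.55, below this bound, so the bound holds only without that offset. For this bound the old mean was set against the dimmest detected probe of each young array, or against the Ces2g signal itself if brighter. Ces2g passed the filter on dim probes only through its old samples, so a gene kept in this way had to be higher in them.

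Of the 4 members measured, Ces2c and Ces2g did not overlap between the ages, both higher in old muscle, where 7.93% of all genes tested were higher in this way and 21.8% did not overlap in either direction. None of the 4 was among the 53 genes (0.254% of those tested, 0.196% higher and 0.0574% lower in old muscle) past limma's adjusted p of 0.05. Since the members were chosen on this contrast, nothing is read from these counts.

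**Figure D2:**
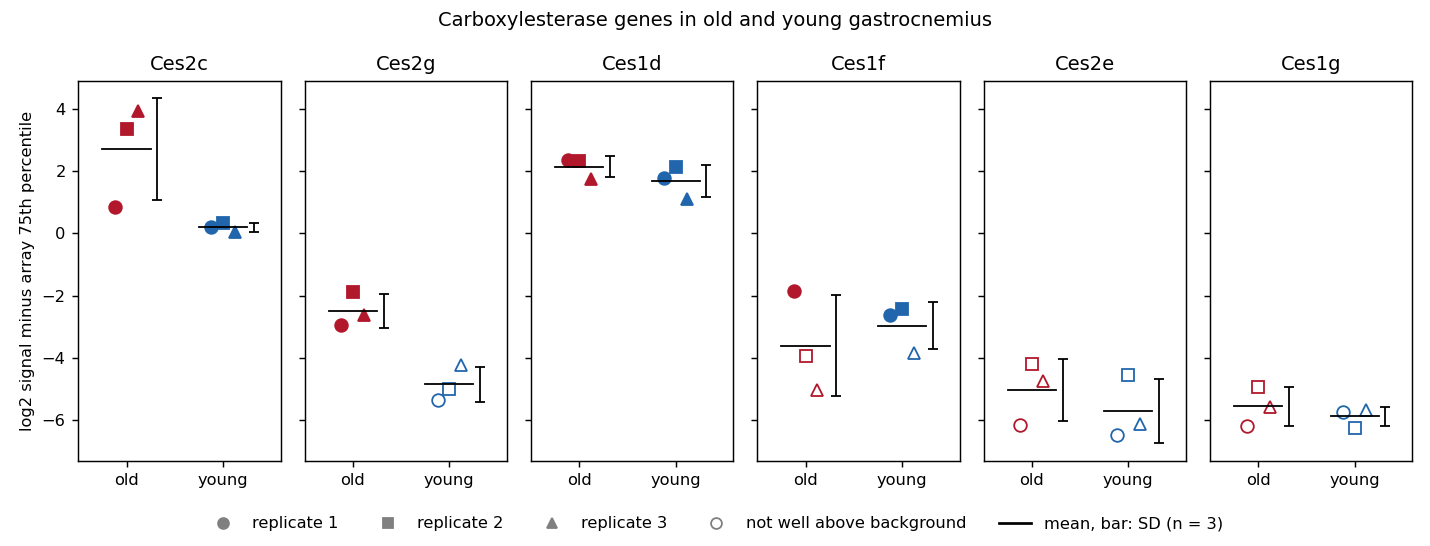
Level (log2 signal minus the array's 75th percentile) of the 6 carboxylesterase genes in old and young samples, by the brightest probe of each, with the mean (line) and SD (bar, n = 3), and open markers where the probe was not well above background. Markers are filled at both ages for Ces2c and Ces1d, in old samples only for Ces2g, in 1 old and 2 young samples for Ces1f, and nowhere for Ces2e and Ces1g.

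Ces2e, read by 2 probes, was not well above background on any of the 6 arrays. Ces1g, which takes part in hepatic lipid handling and was read by 1 probe, was likewise undetected throughout. For both genes no fold was computed.

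Ces1d, the triacylglycerol hydrolase, was measured in every sample and differed little between the ages. Its level was 2.36, 2.31 and 1.74 in old replicates 1, 2 and 3, against 1.79, 2.14 and 1.12 in young replicates 1, 2 and 3. Old replicate 3 lay within the range of the young samples, and young replicate 3 was the lowest of all 6. The mean was 2.14 ± 0.34 in old muscle and 1.68 ± 0.52 in young muscle (SD, n = 3 each), a log2 difference of 0.46 ± 0.31 (SE), which is smaller than the SD of the young samples.

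Ces1f was near the limit of detection, being well above background in 1 of 3 old samples and 2 of 3 young samples. Its level was -1.84, -3.93 and -5.03 in old replicates 1, 2 and 3, against -2.60, -2.43 and -3.84 in young replicates 1, 2 and 3. The old samples held both the highest and the lowest value, and the ages overlapped. The mean was -3.60 ± 1.62 in old muscle and -2.96 ± 0.77 in young muscle (SD, n = 3 each), so the log2 difference of -0.65 ± 0.80 (SE) was within the spread of the samples.

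Of the 6 arrays, that of old replicate 1 had the highest background. Its mean negative-control signal was 61.3, against 53.0 and 52.2 on old replicates 2 and 3 and 51.9 to 55.1 on the young arrays, and its spike-in slope was 0.840, against 0.925 to 0.941 on the others. It shared row 1 of the slide with the 3 young arrays, while old replicates 2 and 3 lay in row 2. Within row 1 the log2 difference was 0.67 for Ces2c, 0.67 for Ces1d and 1.12 for Ces1f. Without old replicate 1 it was 3.44 for Ces2c, 0.35 for Ces1d and -1.53 for Ces1f. For Ces2g the measured difference was 1.90 within row 1 and 2.59 without old replicate 1, both against undetected young values and so no measure of its size. Row 2 held old samples only and gives no value of its own. For Ces2c the direction was thus kept and the size was not, and for Ces1f, which was below detection in old replicates 2 and 3, the direction turned. For Ces2g the direction was set by detection in old samples alone. Over the genes tested, old replicate 1 had a correlation of 0.976 with old replicate 2 and also with old replicate 3. With young replicates 1, 2 and 3 it was 0.978, 0.982 and 0.969. Young replicate 3 also stood off, with the lowest 75th percentile signal (243, against 302 to 368 on the others). Its correlation was 0.966 with old replicate 3 and 0.969 with old replicate 1, but 0.981 and 0.983 with young replicates 1 and 2. Without young replicate 3 the log2 difference was 2.44 for Ces2c, 0.17 for Ces1d and -1.09 for Ces1f. The part of the slide row or of these 2 arrays in these values was not tested.

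**Figure D3:**
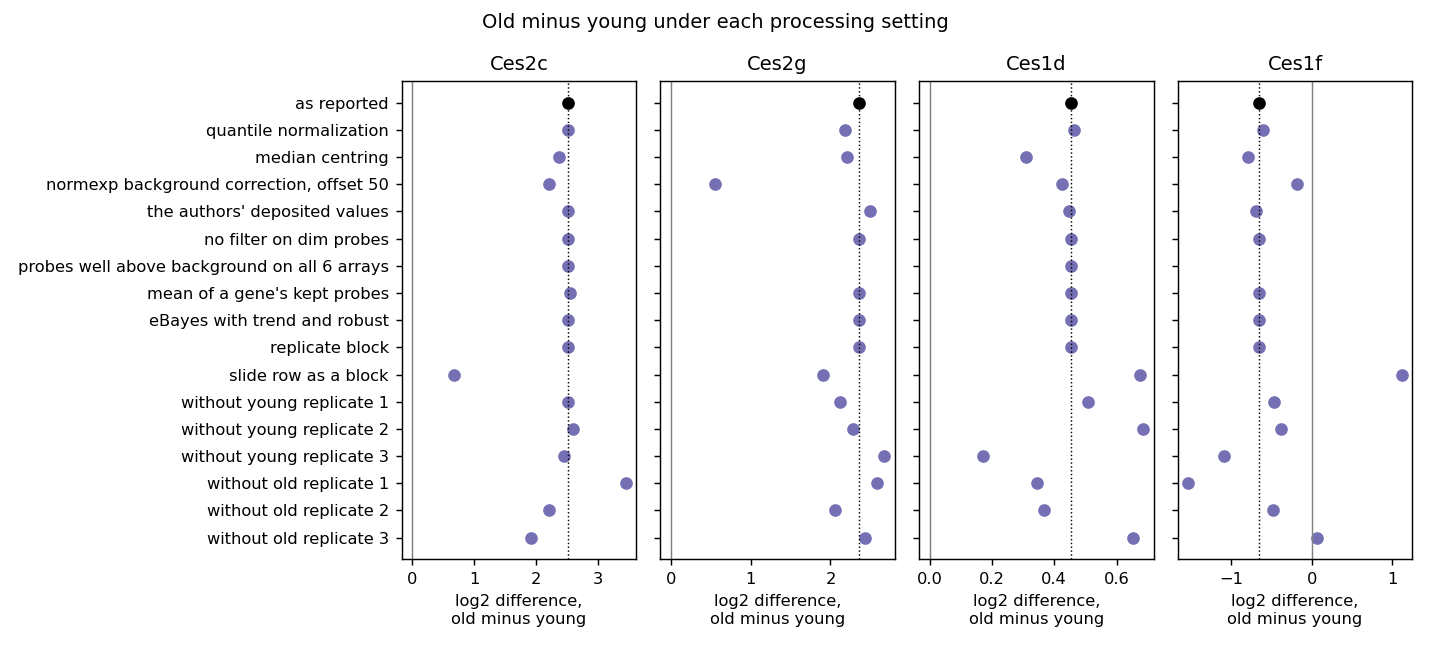
Log2 difference, old minus young (horizontal axis), of the 4 measured members as reported (black) and under each alternative setting (purple), with a dotted line at the reported value and, for Ces2g, all differences against undetected young values. Ces2c is lowest when the slide row is a block (0.67) and Ces2g with normexp background correction (0.55), and the values of Ces1f lie on both sides of 0.

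Among the 14 other carboxylesterase genes, 12 had a probe and 2 were detected in every sample, Ces2b and Ces1e. Ces1e, known as egasyn, which holds beta-glucuronidase in the endoplasmic reticulum, had a log2 difference of -0.38 ± 0.38 (limma adjusted p = 0.665) and overlapping ages. A further pair were detected in some samples, Ces2f in 2 of 3 young samples and no old sample, and Ces5a in old replicate 1 only, by 1 of its 2 probes. The remaining 8 (Ces1a, Ces1b, Ces1c, Ces2a, Ces2h, Ces3a, Ces3b and Ces4a) were not well above background on any array. In the Ces2 cluster, Ces2b, Ces2c and Ces2g thus had higher values in old muscle, while Ces2e between them was undetected and Ces2f was detected in young samples only. Neither Ces2b nor Ces1e passed the test over all genes.

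**Figure D4:**
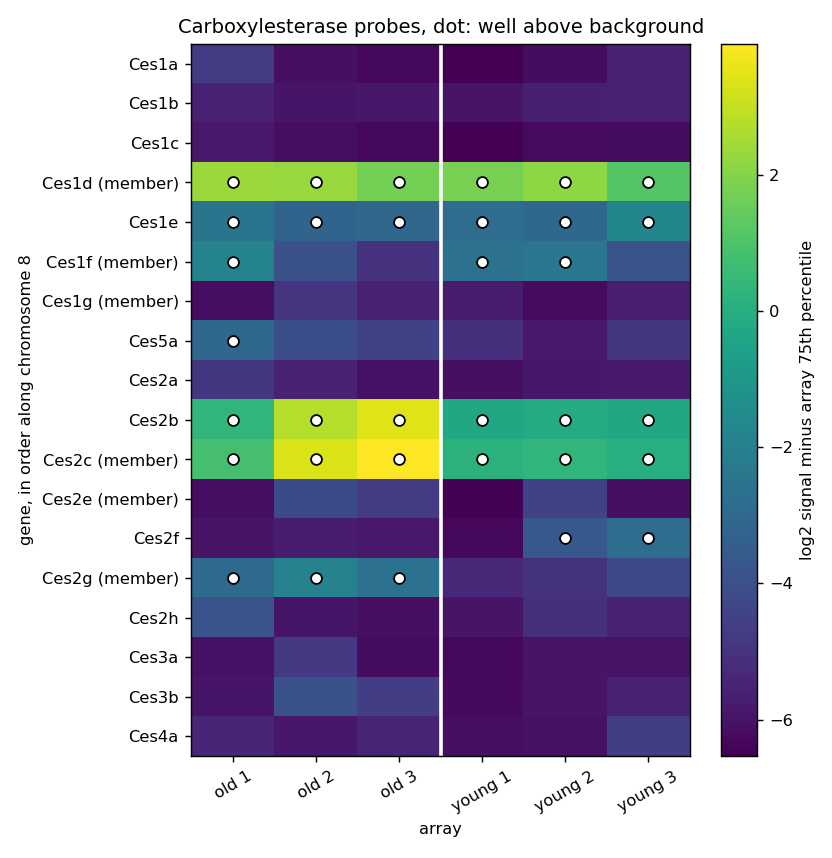
Level (colour, log2 signal minus the array's 75th percentile) of the 18 carboxylesterase genes that had a probe, 1 row per gene in their order along chromosome 8 and 1 column per array, with dots where the probe was well above background. Colours are to be compared along a row. Ces2b and Ces2c share 1 course, brightest in old replicates 2 and 3, and Ces2g carries dots in the old samples only.

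The genes whose levels over the 6 samples were most like those of each member were sought among 13156 named genes by Pearson correlation, as a description. The age difference itself enters these values. The number of genes above 0.95 was 69 for Ces2c, 55 for Ces2g, 16 for Ces1d and 89 for Ces1f. The correlations also use values below detection, for Ces2g in every young sample. For Ces1f these were old replicates 2 and 3 and young replicate 3. For Ces2c the nearest were Ces2b (0.999), the interferon-induced chemokine Cxcl10 (0.999) and Snrpd1, a core protein of spliceosomal particles (0.996). Cxcl10 had a level of -1.95, 1.38 and 2.21 in old replicates 1, 2 and 3, against -2.97, -3.04 and -3.20 in young replicates 1, 2 and 3. Its old replicate 1, too, lay nearest to the young samples. For Ces2g the nearest were Tbc1d31 (0.995), the homeobox gene Pknox2 (0.987) and Nabp1, which encodes a single-strand DNA-binding protein (0.987). For Ces1d they were Zswim8 (0.991), the m6A reader Ythdc1 (0.983) and the lipid transporter Abca3 (0.983), and for Ces1f Cyth2 (0.996), the mitochondrial carrier Slc25a29 (0.994) and Hmbox1 (0.992).

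Other enzymes and regulators of the same chemistry were read beside the members. Of all genes tested, 14.4% had an unadjusted p under 0.05 by limma. Of 19 tested members of a list of other ester hydrolases, 0 passed limma's adjusted test in either direction and 5 had an unadjusted p under 0.05. The list's median log2 difference was -0.16, against -0.06 for all genes. The paraoxonase Pon1 had -0.999 ± 0.28, the acyl-CoA thioesterase Acot7 -0.60 ± 0.20, the lysosomal thioesterase Ppt1 0.73 ± 0.27 and the sialic acid esterase Siae -0.42 ± 0.16. Of 21 tested genes of neutral lipid lipases and their regulators, again 0 passed limma's adjusted test and 2 had an unadjusted p under 0.05, with a median of -0.08. Pnpla8, a phospholipase, had -0.47 ± 0.17, the monoacylglycerol lipase Abhd6 0.79 ± 0.30, the lipase coactivator Abhd5 -0.31 ± 0.16 and lipoprotein lipase Lpl -0.81 ± 0.43.

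The drug-metabolising enzymes that act beside carboxylesterases in liver were mixed. Of 32 tested oxidation and conjugation enzymes, 0 passed limma's adjusted test, with a median of -0.08. An unadjusted p under 0.05 was found for 6 of them, against 14.4% of all genes tested. The cytochrome Cyp1b1 had a log2 difference of 1.27 ± 0.35, the glutathione transferase Gstm2 0.92 ± 0.29, the epoxide hydrolase Ephx2 -0.67 ± 0.22 and the quinone reductase Nqo1 0.50 ± 0.20. Of 17 tested xenobiotic and lipid-sensing nuclear receptors and partners, 0 passed limma's adjusted test and 2 had an unadjusted p under 0.05, with a median of -0.17. The retinoid X receptors Rxra and Rxrb had -0.58 ± 0.17 and -0.42 ± 0.17, the xenobiotic receptor Nr1i3 0.54 ± 0.33 and the glucocorticoid receptor Nr3c1 -0.27 ± 0.18. Nr1i3 was well above background in only 2 of 3 old and 1 of 3 young samples, so its difference is no measure of size. Nr1i2, the pregnane X receptor, and the hepatic factor Hnf4a were not well above background on any array.

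**Figure D5:**
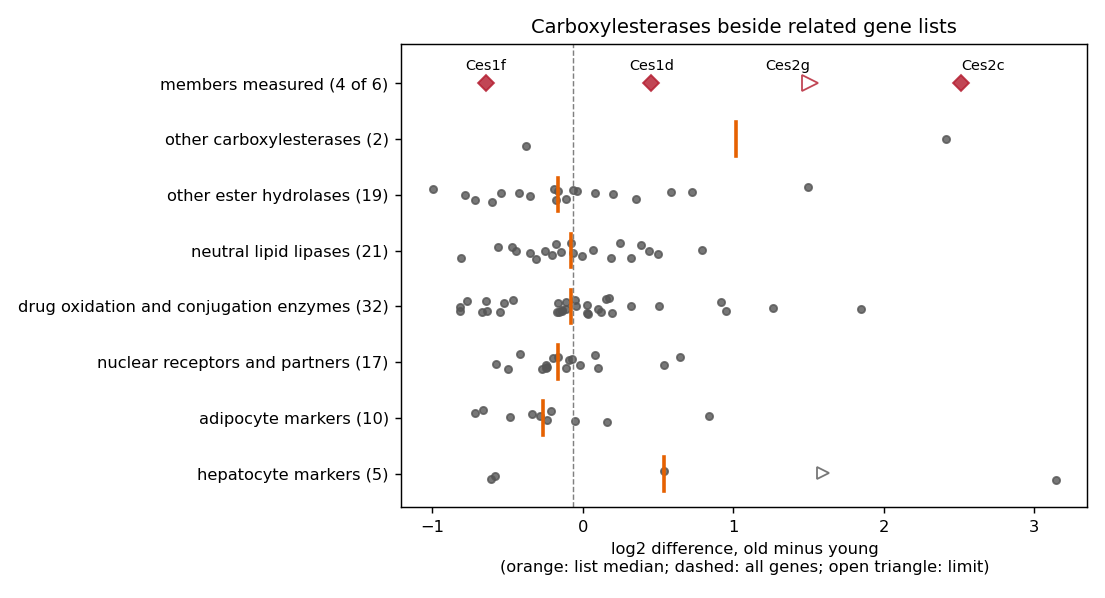
Log2 difference, old minus young (horizontal axis), of the 4 measured members (diamonds) and of the tested genes of related lists (points, with the number tested), with the median of each list (orange) and of all genes (dashed, -0.06). Open triangles mark genes undetected at 1 age, drawn at their limit, among them Ces2g (at least 2.85-fold) and Ahsg (at least 3.02-fold), and Ces2c (2.52) lies near Ces2b (2.42).

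Markers of cell types in which carboxylesterases are abundant were read beside these values. Muscle identity was plain, with 12 of 12 fibre markers well above background on all arrays, among them Acta1 at a mean level of 9.74 in old muscle and 9.75 in young muscle, and Ckm at 9.67 in old and 9.85 in young muscle. Of 12 adipocyte markers 10 were tested and 0 passed limma's adjusted test, with a median log2 difference of -0.26. Of the 10, 1 had an unadjusted p under 0.05, against 14.4% of all genes tested. Their summed signal, in units of the array's 75th percentile, ran from 112 to 148 on the old arrays and from 147 to 155 on the young arrays. The sum was mostly Fabp4, at a mean level of 6.30 in old and 6.51 in young muscle, and Cfd, at 5.14 in old and 5.48 in young muscle. It therefore says little about the other adipocyte markers. Adipoq, the adipokine gene, had a level of 2.14, 1.45 and 1.51 in old replicates 1, 2 and 3, against 2.05, 1.97 and 1.80 in young replicates 1, 2 and 3. Its part in the values of Ces1d and Ces1f was not tested.

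Of 12 hepatocyte markers 5 were tested, and 0 passed limma's adjusted test. An unadjusted p under 0.05 was found for 4 of the 5, against 14.4% of all genes tested. Among the 4 was Ahsg, which passed the filter on dim probes only through its old samples, so its direction was fixed in advance. Apoa1 and Ttr were not well above background on any array and Alb on 1. The summed signal of the 5 ran from 5.84 to 9.79 on the old arrays and from 8.44 to 10.8 on the young arrays. The list's median log2 difference was 0.54, with 3 positive (Ahsg among them) and 2 negative, so the median and the sum point different ways. The sum was mostly Apoa2, at a mean level of 2.60 in old and 3.21 in young muscle. The other tested markers had mean levels below 0 at both ages. Serpina1a, an alpha-1-antitrypsin gene, had a log2 difference of 3.15 ± 0.93, and Ahsg, which encodes fetuin-A, was at least 3.02-fold higher in old muscle, being undetected in young samples (log2 difference 0.56 with normexp, below that bound), while Apoa2 had -0.61 ± 0.25 (limma adjusted p of 0.227, 0.163 and 0.333). The remaining tested markers were Apoc3 (-0.59 ± 0.21, limma adjusted p = 0.289) and Tat (0.54 ± 0.26, limma adjusted p = 0.399). Of 12 gut and kidney epithelium markers 2 were tested, and Vil1, Cdh16 and Cdh17 were not well above background on any array.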

How the data were processed

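RNA of 3 old and 3 young gastrocnemius samples was measured on single-colour Agilent arrays. Spot values are the processed intensity of Feature Extraction 11.0.1.1, per the file headers, with background subtraction and spatial detrending done by that software. Version 9.5 is named in the submitters' processing notes. Detection was the flag for signals well above background, as deposited. The authors' deposited value table holds the same intensity scaled to each array's 75th percentile and rounded. Its column medians were 9, 7 and 6 for the old arrays, against 6, 7 and 7 for the young arrays, and its values served as an alternative.

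Control spots and outlier-flagged spots were left out, log2 signals were averaged per probe, and each array's 75th percentile over its 55681 non-control probes was subtracted. Of these probes, 28325 matched a RefSeq symbol (GRCm38.p6) by accession. The grid names mm9, so coordinates are given only for the RefSeq promoter windows. Probes well above background on at least 3 arrays were kept, and the brightest kept probe stood for a gene. The age contrast was fitted in limma 3.58.1 under R 4.3.3 (lmFit and eBayes, two-sided, Benjamini-Hochberg over 20907 genes). Python 3.11.15, pandas 2.3.3, numpy 2.4.6, Biopython 1.88 and matplotlib 3.10.9 made tables, alignments (match 1, mismatch -1, gap opening -3, extension -1) and figures. On simulated data for old versus young (20899 genes, 50 changed per size) 20% of log2 changes of 1 were called, 76% of those of 2, 92% of those of 3 and 100% of those of 5, and 6 unchanged genes were called. The simulated noise was normal and independent between genes, with each gene's own SD, and held no effect of slide row or array. These rates may therefore not hold for the real arrays.

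The members and lists were chosen with earlier results of these data known. Named are the members, every other carboxylesterase, the 4 genes of lowest p in each enzyme or receptor list, and the 3 genes nearest to each measured member. Marker lists are given by counts and by some of their first genes. In the hepatocyte list, genes further down are named too, among them Serpina1a and Ahsg, which had its largest log2 differences. All arrays shared 1 slide and 1 scan. Same-numbered old and young samples had correlations of deviations of -0.06, -0.27 and 0.03. Those of differently numbered samples ran from -0.21 to 0.35. So few values cannot decide whether the numbers pair the samples, and the labels name no pairing.  The number of arrays limits the precision.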

Additional observations from a re-analysis of the deposited data

How the results depend on the processing

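Under the alternatives tried (quantile normalization, median centring, normexp, the authors' values, filters, mean of probes, eBayes with trend and robust settings, replicate block, a block for slide row, and each array left out in turn), the log2 difference stayed positive for Ces2c and Ces1d in 16 of 16, and was negative for Ces1f in 13 of 15. Not all of these could change a member's value, since each member was read by the same probe throughout. The filters, the eBayes settings and the replicate block only repeat the reported difference (2.52 for Ces2c, 0.46 for Ces1d, -0.65 for Ces1f). So does the mean of probes for Ces1d and Ces1f, and such repeats add no support to these counts. The filter for probes well above background on all 6 arrays gave no value for Ces2g and Ces1f, and Ces1g and Ces2e gave none at all. The block for slide row, which sets old replicate 1 against the young arrays, gave 0.67 for Ces2c and 1.12 for Ces1f. Normexp, which starts from the median spot signals and adds an offset to all, gave 0.55 for Ces2g. That value is below the Ces2g bound, so the bound does not hold under that setting. Leaving out 1 array in turn gave 1.91 to 3.44 for Ces2c, 2.06 to 2.68 for Ces2g (against undetected young values, with the direction fixed by its detection in old samples, so no sign of stability), 0.17 (without young replicate 3) to 0.68 (without young replicate 2) for Ces1d, and -1.53 (without old replicate 1) to 0.07 (without old replicate 3) for Ces1f. Median centring moved the median of all genes to -0.21, where it was -0.06 as reported.

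Of all genes, 53 passed limma's adjusted test as reported (41 higher, 12 lower). The count was 8 with no filter, 35 with probes above background on all arrays, 5 with the replicate block, and between 1 and 186 without 1 array. It was 10, 8 and 17 without young replicate 1, 2 and 3, and 186, 6 and 1 without old replicate 1, 2 and 3. Median centring called 26 higher of 42, normexp 38 of 61 and the slide row as a block 22 of 41. Ces2b passed in 1 of 16 alternatives, without old replicate 1 (log2 difference 3.32, limma adjusted p = 0.0109), with adjusted p up to 0.547 in the others. The labels do not pair the samples. With 1 old and 1 young array per replicate number, the replicate block cannot change the log2 differences of the 4 members (2.52 for Ces2c). Their unchanged values are thus no check. The ester hydrolase, lipase, drug enzyme and receptor lists held 0 called genes under every alternative. With the slide row as a block the medians were 0.17 for lipases, 0.42 for drug enzymes and 0.09 for receptors, each of the opposite sign to the reported one, and the cause was not tested.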

Other observations

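Genes that flank the carboxylesterase clusters on chromosome 8 were read as a further description, chosen after the data were seen. Beside the Ces2 cluster, Rrad, a small GTPase that inhibits calcium channels, had a mean level of 2.76 ± 1.83 in old muscle and -1.29 ± 0.47 in young muscle (SD, n = 3 each), a log2 difference of 4.05 ± 0.85 (SE; limma adjusted p = 0.142). Its other neighbours before the cluster were Ciao2b (0.09 ± 0.16), the phosphatase Pdp2 (-0.35 ± 0.73) and the carbonic anhydrase Car7 (-0.49 ± 0.24). After the cluster came Cbfb (-0.51 ± 0.26), D230025D16Rik (0.80 ± 0.32), B3gnt9 (-0.36 ± 0.17) and Tradd (0.38 ± 0.20). Beside the Ces1 cluster, Slc6a2, the noradrenaline transporter, had a log2 difference of 1.79 ± 0.44 (limma adjusted p = 0.176), well above background in 3 of 3 old and 1 of 3 young samples. The matrix metalloproteinase Mmp2 had 0.04 ± 0.46 there, Irx3 0.18 ± 0.26 and Fto 0.16 ± 0.21. None of the flanking genes named here passed limma's adjusted test over all genes. An unadjusted p under 0.05 was found for 3 of them (Rrad, Slc6a2 and D230025D16Rik), and for 14.4% of all genes tested.

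Marker lists of other cells in the muscle gave median log2 differences of -0.39 for endothelial cells (10 genes tested), -0.27 for fibroblasts (10), 0.64 for macrophages (9), -0.76 for Schwann cells (10) and -0.44 for smooth muscle and pericytes (10). Prx of the Schwann cell list was the only gene in them that passed limma's adjusted test (-1.29 ± 0.16, adjusted p = 0.0429). The fibre list had a median of -0.16 and the gut and kidney list of -0.19.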
